A study of Homo sapiens with 3 samples.

Results

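Histones package DNA into nucleosomes, and their genes were followed in RNA-seq of PLC, a human liver cancer cell line derived from a hepatocellular carcinoma. Members were the gene names that begin with HIST1H, HIST2H, HIST3H or HIST4H, together with H1F0, H1FX, H2AFX, H2AFZ, H2AFV, H2AFY, H3F3A and H3F3B. Names ending in PS and a number, 13 in all, were left out. The rule found 84 names of 55827 in the tables, 76 of them clustered and 8 replacement genes, on 82 loci of 52681. A mean of at least 1 FPKM (fragments per kilobase of transcript, relative to the total mapped in each library) over the 3 libraries was reached by 48 loci, called measured below: 40 of the 74 clustered loci and all 8 replacement loci. Of the other 34, 13 were at 0 in every library and 21 were above 0 in at least 1. By annotation 78 of the names are protein-coding and 6 are pseudogenes.

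Each group was 1 library of PLC cells, harvested 48 hours after infection with a virus carrying short hairpin RNA. The control group received a non-targeting hairpin (NTC in the labels). The shDIS3L2 group received hairpins against DIS3L2, and the shHNRNPU group (shhnRNP U in the labels) received hairpins against HNRNPU, the gene of the nuclear RNA-binding protein hnRNP U. Pooling of several hairpins in a library was not given in the sources used here. With 1 library per group there is no replicate check, and no p-value was computed. A range in parentheses after an FPKM value is the deposited interval, taken as 95%, which covers the estimate within a library and not the variation between cultures.

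DIS3L2 itself stood at 7.61 FPKM in control, 3.23 in shDIS3L2 and 11.2 in shHNRNPU, at a locus whose assembled bounds differed between libraries. HNRNPU stood at 178, 232 and 33.5 FPKM in the same order. In control the DIS3L2 locus was merged with AC068134.10 and the HNRNPU locus with HNRNPU-AS1. Estimated depth was 23.0 M, 18.3 M and 20.1 M fragments in control, shDIS3L2 and shHNRNPU. All 16 hepatocyte markers looked for were measured, with summed levels of 18428, 7183 and 12335 FPKM, while 0 of 7 fibroblast and 0 of the 4 endothelial markers matched by name reached the filter. ALB, the serum albumin gene and a defining hepatocyte marker, was low in this line, at 11.8, 0.856 and 5.21 FPKM. Of 8 blood cell markers LYZ, HBA1 and HBA2 were measured, with sums over the list of 199, 57.0 and 153 FPKM. LYZ, the lysozyme gene, made up most of them at 181, 33.5 and 70.8 FPKM, while the haemoglobin genes HBA1 and HBA2 stood at 8.94, 12.02 and 44.9 and at 8.25, 9.99 and 36.2 FPKM. Of 5 biliary markers KRT7, SOX9 and EPCAM were measured, with sums of 81.6, 133 and 87.5 FPKM. By the size rule given below, 6 of 16 hepatocyte markers were lower than control in each knockdown, where 7.58% of all measured loci were lower in shDIS3L2 and 7.47% in shHNRNPU. In shDIS3L2 1 hepatocyte marker and 2 of 3 biliary markers were higher, where 8.95% of all loci were. LYZ was lower in both knockdowns, and HBA1 and HBA2 were higher in shHNRNPU, where 8.32% of all loci were. The part of these differences in the histone levels was not tested.

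Replication-dependent histone genes lie in clusters, are transcribed mainly in S phase, and most lack introns. Their mRNAs are the animal mRNAs that usually end in a conserved stem-loop instead of a poly(A) tail. SLBP, the stem-loop binding protein, binds that end and is needed for its processing and for translation, and decay of the mRNA at the end of S phase starts with the addition of uridines to the 3′ end by terminal uridylyltransferases. DIS3L2 is an exoribonuclease that degrades uridylated RNA from the 3′ end. Replacement histones are encoded by solitary genes, are made throughout the cell cycle from polyadenylated mRNAs, and enter chromatin outside replication as well. Clustered histone genes can also give polyadenylated mRNA, above all in differentiated cells and in some tumour lines. Selection for poly(A) was not given in the sources used here, so the levels of the clustered genes cannot be split into the 2 kinds of mRNA.

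The stem-loop is shown here because it is the element through which the mRNA of a clustered gene is processed and degraded. In the transcripts of GENCODE v29, the pattern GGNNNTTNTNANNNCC on the sense strand, with its 6 outer bases on each side able to pair (G with T allowed), was found in 35 of the 76 clustered genes and in 1 replacement gene, H2AFX. Among all 19669 protein-coding genes it was found in 118, or 0.600%. Many annotated histone transcripts end at the stop codon, so that a gene without a match may only lack an annotated end. The sites below come from genes that the results turn on, 5′ to 3′ in DNA letters, with the stem-loop in capitals and 5 bases on either side.

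H2AFX: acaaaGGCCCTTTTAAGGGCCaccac

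HIST2H2AA4: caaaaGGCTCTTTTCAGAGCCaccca

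HIST1H2BC: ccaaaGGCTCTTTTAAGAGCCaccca

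HIST1H2BG: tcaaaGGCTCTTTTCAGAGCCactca

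HIST1H4H: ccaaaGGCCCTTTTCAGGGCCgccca

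HIST1H3H: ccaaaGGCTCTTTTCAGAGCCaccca

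HIST2H2BD: ccaaaGGCTCTTTTCAGGGCCactta

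HIST2H2BE: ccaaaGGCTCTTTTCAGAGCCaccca

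HIST3H2A: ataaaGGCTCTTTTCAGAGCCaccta

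The form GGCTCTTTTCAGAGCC was the commonest, in 18 of the 36 genes, among them H2A, H2B and H3 genes. The form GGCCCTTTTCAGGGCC was in 5 genes, all of them H4 genes. After the stem-loop, the annotated transcript went on for 35 bases in HIST2H2AA4, 390 in HIST3H2A, 769 in HIST1H3H, 1044 in H2AFX, 1729 in HIST2H2BE and 2976 in HIST2H2BD.

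Promoters of 5 members are shown because these genes carry the main differences below: an H2B pair of the HIST1 cluster, an H3 gene of that cluster, and a linker and an H3 replacement gene. They come from RefSeq (GRCh38.p14) and run from 250 bases before to 50 bases after the start of the gene. Capitals mark 4 motifs searched on both strands: the TATA box TATAAA, the CCAAT box CCAAT, the octamer ATTTGCAT and the H1 box AAACACA. A match on the other strand reads as its reverse complement, and neighbouring matches can overlap. In order, the windows are chr6:27146809-27147108, chr6:27132746-27133045, chr6:26032050-26032349, chr3:129316237-129316536 and chr17:75779730-75780029, each on the minus strand.

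HIST1H2BK: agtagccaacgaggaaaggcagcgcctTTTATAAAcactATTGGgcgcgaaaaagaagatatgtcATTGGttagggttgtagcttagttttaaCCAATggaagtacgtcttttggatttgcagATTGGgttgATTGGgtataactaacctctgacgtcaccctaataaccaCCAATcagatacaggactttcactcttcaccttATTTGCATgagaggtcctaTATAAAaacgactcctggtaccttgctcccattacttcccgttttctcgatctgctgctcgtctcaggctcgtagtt

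HIST1H2BJ: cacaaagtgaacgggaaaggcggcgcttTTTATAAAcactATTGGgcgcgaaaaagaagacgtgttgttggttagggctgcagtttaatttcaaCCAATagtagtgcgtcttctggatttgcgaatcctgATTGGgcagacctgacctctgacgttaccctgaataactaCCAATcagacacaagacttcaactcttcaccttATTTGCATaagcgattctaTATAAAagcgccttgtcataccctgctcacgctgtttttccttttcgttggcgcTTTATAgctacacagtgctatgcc

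HIST1H3B: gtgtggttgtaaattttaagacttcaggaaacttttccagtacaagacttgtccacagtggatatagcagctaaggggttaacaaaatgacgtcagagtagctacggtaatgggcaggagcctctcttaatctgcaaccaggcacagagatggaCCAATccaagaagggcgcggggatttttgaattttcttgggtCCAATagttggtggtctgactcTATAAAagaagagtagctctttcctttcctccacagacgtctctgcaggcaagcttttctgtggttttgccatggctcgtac

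H1FX: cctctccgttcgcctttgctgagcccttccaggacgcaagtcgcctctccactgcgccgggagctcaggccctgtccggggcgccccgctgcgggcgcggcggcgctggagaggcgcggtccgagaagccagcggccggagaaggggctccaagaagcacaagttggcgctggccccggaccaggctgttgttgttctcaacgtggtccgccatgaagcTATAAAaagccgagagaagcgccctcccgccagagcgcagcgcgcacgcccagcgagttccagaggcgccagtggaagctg

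H3F3B: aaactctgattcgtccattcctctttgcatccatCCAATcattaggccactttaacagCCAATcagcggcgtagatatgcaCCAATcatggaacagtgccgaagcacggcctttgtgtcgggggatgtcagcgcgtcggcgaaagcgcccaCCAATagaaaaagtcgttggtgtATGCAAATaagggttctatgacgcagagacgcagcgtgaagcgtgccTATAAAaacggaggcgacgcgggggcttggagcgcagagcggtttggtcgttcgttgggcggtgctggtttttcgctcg

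HIST1H2BK and HIST1H2BJ both hold CCAAT boxes followed by the octamer and a TATA box ahead of the start, besides further TATAAA matches. H1FX holds a TATA box and none of the other 3 motifs, whereas H3F3B, a replacement gene, holds 4 CCAAT boxes, an octamer and a TATA box. Of the members, 67 matched a RefSeq promoter, 60 of them clustered. The octamer was present in 21 of the 60 (35%), against 1.77% of all 35116 promoters of this length. By type it was in 11 of 16 H2A, 9 of 13 H2B, 1 of 12 H3, 0 of 13 H4 and 0 of 6 H1 promoters. TATAAA was present in 66.7% of clustered promoters against 11.5% of all, and CCAAT in 83.3% against 34.6%. The H1 box was in all 6 clustered H1 promoters and in 3 of the other 54, against 5.64% of all promoters.

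Replacement genes made up most of the histone mRNA measured per length. In control the 8 replacement genes summed to 2766 FPKM and the clustered genes to 389 FPKM, a ratio of 7.12. Whether mRNA without a poly(A) tail was kept in the libraries is not known. The ratio of the classes therefore describes these libraries and cannot be carried over to the cells. The highest single member in control was H3F3B at 600.1 FPKM (578 to 622), which encodes the replacement histone H3.3, followed by H2AFZ, the gene of H2A.Z, at 567 FPKM (541 to 593). These neighbours in the order had overlapping intervals. H2AFX, the gene of the variant that is phosphorylated at DNA breaks, came next at 349 FPKM (337 to 360), and H3F3A, the second H3.3 gene, at 336 FPKM (323 to 349), again with overlapping intervals. H2AFV, which encodes a close relative of H2A.Z, stood at 270 FPKM (256 to 283), H1F0, a linker histone of resting and differentiated cells, at 265 FPKM (260.3 to 269), and H1FX, another linker histone, at 249.7 FPKM (239 to 260.0). H2AFY, the macroH2A1 gene, was lowest at 130.0 FPKM (124 to 136).

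Among clustered genes a few loci held most of the signal. HIST1H2BK, an H2B gene, was the highest in every library, at 63.9 FPKM (58.9 to 69.0) in control. The 5 highest clustered loci held 58.4% of the clustered sum in control, 63.0% in shDIS3L2 and 56.5% in shHNRNPU, and they were the same loci in each library: HIST1H2BK, HIST1H1C, HIST3H2A, HIST1H4J and HIST2H2AA4. A mean of at least 10 FPKM was reached by 11 of the 40 measured clustered loci, and 24 had a mean under 5. In RNA of many cells, a larger share of cells in S phase and more histone mRNA per cell cannot be told apart. The intervals show what that abundance means for precision: they reached a median of 45.9% of the FPKM to either side for clustered loci in control, 38.9% in shDIS3L2 and 40.8% in shHNRNPU. For replacement loci the same medians were 4.07%, 4.60% and 4.43%, and for all measured loci 10.7%, 11.8% and 11.4%.

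**Figure D1:**
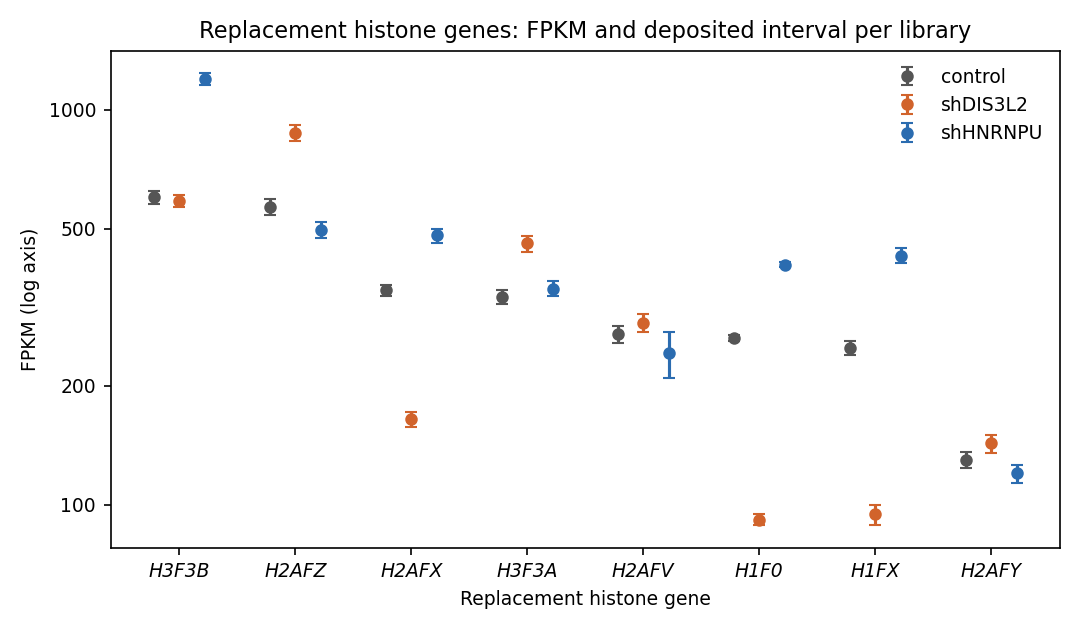
FPKM (log axis) of the 8 replacement histone genes in control, shDIS3L2 and shHNRNPU; points are the single library of each group and bars the deposited interval. H1F0, H1FX and H2AFX are lowest in shDIS3L2, H2AFZ is highest there (874 FPKM), and H3F3B is highest in shHNRNPU (1197 FPKM).

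A locus was called higher or lower under 3 conditions: the log2 ratio of FPKM plus a pseudocount of 1 reached 1 or -1, the intervals lay apart, and both libraries had the status OK. The pseudocount understates the ratio of low genes. The filter can keep a low gene through the 1 library in which it is high, so counts over measured loci describe these libraries and are not a test of the histone genes. In shDIS3L2 against control, 9 of the 48 measured histone loci were higher (18.8%) and 7 lower (14.6%), where 8.95% and 7.58% of all 11785 measured loci were called in these directions. The 9 higher loci were all clustered genes. The 7 lower loci were 3 replacement and 4 clustered loci. Intervals did not overlap for 23 of 48 histone loci, against 58.1% of all loci. The median log2 ratio was 0.09 over clustered loci and 0.03 over replacement loci, beside 0.09 over all loci, and under median-of-ratios rescaling these were 0.02, -0.09 and 0.00. At a mean of at least 5 FPKM the 16 clustered loci left had a median of 0.65, against 0.08 over all loci at that filter. That mean includes shDIS3L2 itself. HIST1H3B, at 2.05, 28.1 and 0.859 FPKM in control, shDIS3L2 and shHNRNPU, reached it only through shDIS3L2. So did HIST1H2AD/HIST1H3D, at 1.71, 12.5 and 2.80 FPKM. Whether the clustered median near 0 came with the low loci was therefore not tested.

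The linker replacement genes were the lowest replacement members in shDIS3L2. H1F0 (chr22:38201114-38203442, hg19) stood at 265 FPKM (260.3 to 269) in control, with 91.6 (88.6 to 94.5) in shDIS3L2 and 405 (399 to 411) in shHNRNPU. The level in shDIS3L2 was thus 2.89-fold lower than in control, a log2 ratio of -1.52. H1FX (chr3:129033615-129035120, hg19, in both knockdowns) stood at 249.7 FPKM (239 to 260.0), 94.4 (88.9 to 99.9) and 427 (408 to 447), 2.65-fold lower in shDIS3L2, with a log2 ratio of -1.39. In neither gene did the intervals of any 2 libraries overlap. The control locus of H1FX was assembled 2383 bases long, against 1506 in the knockdowns.

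H2AFX stood at 349 FPKM (337 to 360) in control, with 164 (157 to 172) in shDIS3L2 and 480.3 (461 to 499.6) in shHNRNPU, log2 ratios of -1.08 and 0.46 against control. In control, and only there, the locus was merged with its neighbour DPAGT1, a gene of N-glycan synthesis, which stood at 23.6 FPKM in shDIS3L2 and 36.5 in shHNRNPU. With both genes summed in every library, an alternative added after the data were seen, the log2 ratio in shDIS3L2 was -0.89 and the call was lost.

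No other replacement gene passed the rule in shDIS3L2. Among all loci with a mean of at least 100 FPKM, where the 8 replacement genes lie, 6.35% were higher and 7.01% lower in shDIS3L2, against 0 and 3 of these 8. H2AFZ stood at 567 FPKM (541 to 593) in control and 874 (835 to 914) in shDIS3L2, a log2 ratio of 0.62, and H3F3A at 336 (323 to 349) and 458 (437 to 480.0), a ratio of 0.45. For both, the shDIS3L2 interval lay above that of control. H3F3B stood at 587 FPKM (567 to 608) in shDIS3L2, H2AFV at 289 (274 to 305) and H2AFY at 143 (135 to 150), all with intervals that overlapped control. Their log2 ratios were -0.03, 0.10 and 0.13, and that of H2AFV was -0.02 under median-of-ratios rescaling.

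Clustered genes as a sum were higher in shDIS3L2, with 639 FPKM against 389 in control, a ratio of 1.64. The sum of H2B loci showed the largest ratio of the 5 types, 274 FPKM against 120.1, or 2.28-fold. For H1 the ratio was 1.84, for H2A 1.44 and for H4 0.926. The H3 ratio of 1.64 rested on HIST1H3B, whose bounds differed between libraries. Without it the H3 sums were 19.3 FPKM in control and 6.92 in shDIS3L2, a ratio of 0.358 in the other direction. The H3 sums leave out the joint loci HIST1H2AD/HIST1H3D and HIST1H2AM/HIST1H3J, which were counted as H2A. These stood at 1.71 and 8.96 FPKM in control and at 12.5 and 3.76 in shDIS3L2, so the H3 ratio depends on where they are counted. These sums follow the most abundant loci, and HIST1H2BK alone held 186 of the 274 FPKM of H2B in shDIS3L2. The replacement sum was 2702 FPKM in shDIS3L2. The ratio of replacement to clustered mRNA, with the limit on poly(A) given above, stood at 4.23 there, against 7.12 in control and 7.69 in shHNRNPU. Among linker histones the same ratio was 10.5 in control, 2.06 in shDIS3L2 and 15.7 in shHNRNPU.

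**Figure D2:**
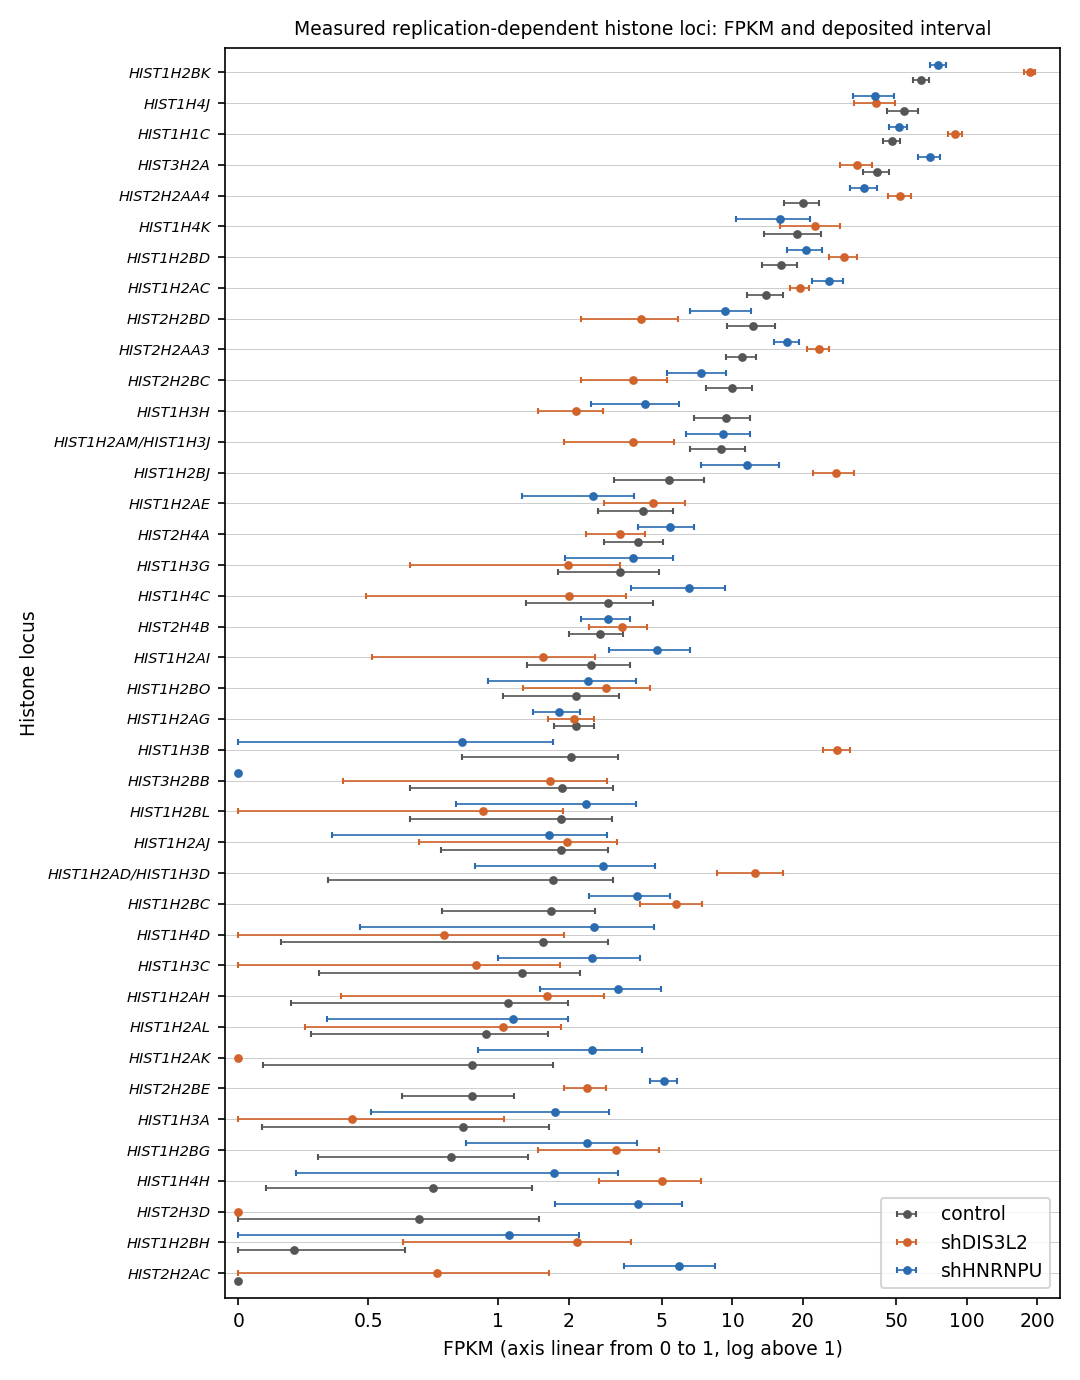
FPKM (axis linear from 0 to 1 and logarithmic above) of the 40 measured clustered histone loci in the 3 libraries, ordered by control level; points are single libraries and bars the deposited interval. HIST1H2BK is highest in each library, and the intervals of loci near 1 FPKM span most of their value.

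Of 12 measured H2B loci, 4 were higher and 2 lower in shDIS3L2, with a median log2 ratio of 0.85. Of all measured loci 8.95% were higher and 7.58% lower there. HIST1H2BK stood at 63.9 FPKM (58.9 to 69.0) in control, with 186 (175 to 197) in shDIS3L2 and 75.4 (69.5 to 81.3) in shHNRNPU. It was 2.91-fold higher in shDIS3L2, a log2 ratio of 1.53, and the interval there lay far above those of control and shHNRNPU, which were just apart from each other. Of its annotated 50-base windows, 74.1% also occur in other genes, so that fragments may be shared between copies.

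HIST1H2BJ stood at 5.35 FPKM (3.13 to 7.57), 27.6 (22.2 to 33.1) and 11.6 (7.37 to 15.7) in control, shDIS3L2 and shHNRNPU, 5.16-fold higher in shDIS3L2 with a log2 ratio of 2.17. Only 4.65% of its windows occur elsewhere. Its bounds differed between libraries, at lengths of 7192, 7209 and 6866 bases. HIST1H2BC stood at 1.69 FPKM in control and 5.73 in shDIS3L2, and HIST1H2BG at 0.819 and 3.18, log2 ratios of 1.32 and 1.20. HIST1H2BG was assembled 1451 bases long in control and 2563 in shDIS3L2. HIST1H2BD, at 16.04 FPKM (13.3 to 18.8) and 29.96 (25.9 to 34.0), had a log2 ratio of 0.86 and was not called although the intervals lay apart.

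The 2 H2B loci called lower in shDIS3L2 are pseudogenes of the HIST2 cluster. HIST2H2BD stood at 12.3 FPKM (9.44 to 15.1) in control, with 4.06 (2.24 to 5.87) in shDIS3L2 and 9.28 (6.57 to 11.99) in shHNRNPU, a log2 ratio of -1.39 in shDIS3L2. HIST2H2BC stood at 9.91, 3.75 and 7.30 FPKM, with -1.20 in shDIS3L2. That locus was merged with RP11-196G18.22 in control, and with both summed everywhere the ratio was -0.95 and the call was lost.

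H2A genes, with the joint H2A and H3 loci counted here, gave 3 higher and 1 lower of 14 measured loci in shDIS3L2, with a median of 0.09. The shares over all measured loci were 8.95% and 7.58%. HIST2H2AA4 (chr1:149822643-149823191, hg19) stood at 19.97 FPKM (16.6 to 23.3) in control, with 51.8 (46.0 to 57.6) in shDIS3L2 and 36.5 (31.7 to 41.4) in shHNRNPU, a log2 ratio of 1.33 in shDIS3L2. Its copy HIST2H2AA3 stood at 11.0, 23.4 and 17.1 FPKM, a ratio of 1.03, which was 0.91 and no longer a call under median-of-ratios rescaling. The copies share 97.1% and 100% of their 50-base windows with other genes, and their sum of 31.0, 75.2 and 53.6 FPKM is the sounder quantity, with log2 ratios of 1.25 and 0.77 against control. In both genes the 3 intervals lay apart, with shHNRNPU between control and shDIS3L2.

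HIST1H2AD and HIST1H3D were deposited as 1 locus, an H2A and an H3 gene together, at 1.71 FPKM (0.346 to 3.08) in control, with 12.5 (8.55 to 16.4) in shDIS3L2 and 2.80 (0.911 to 4.69) in shHNRNPU, with a log2 ratio of 2.31 in shDIS3L2. HIST1H2AM and HIST1H3J, likewise 1 locus, stood at 8.96 FPKM (6.59 to 11.3), 3.76 (1.90 to 5.62) and 9.11 (6.33 to 11.9), with -1.07 in shDIS3L2. These merged pairs of like makeup thus lay on opposite sides of control. HIST1H2AC, the highest H2A locus of the HIST1 cluster, stood at 14.0, 19.4 and 25.8 FPKM and passed neither way against control, with log2 ratios of 0.45 and 0.84.

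H3 had the lowest sum of the 5 clustered types in control, 21.3 FPKM, and 6 of 13 loci were measured. The joint loci that hold HIST1H3D and HIST1H3J were counted with H2A and are not among them. In shDIS3L2 1 of the 6 measured H3 loci was higher and 1 lower, with a median log2 ratio of -0.45 and 1 of 6 above 0. Over all measured loci 8.95% were higher and 7.58% lower, and so few H3 calls do not set the type apart. HIST1H3B had the largest log2 ratio of all histone loci in shDIS3L2 against control, 3.25, with 2.05 FPKM (0.861 to 3.24) in control, with 28.1 (24.3 to 31.8) in shDIS3L2 and 0.859 (0 to 1.72) in shHNRNPU. The value in shHNRNPU corresponded to 4 fragments. The assembled locus was not the same: it was chr6:26031817-26032288 (472 bases, hg19) in control and shHNRNPU and chr6:26029084-26032317 (3234 bases) in shDIS3L2. The 28.1 FPKM is therefore a level over a longer assembled locus, and how much of it lies over the bounds seen in the other libraries was not tested.

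HIST1H3H went the other way, at 9.35 FPKM (6.84 to 11.9) in control, with 2.14 (1.48 to 2.80) in shDIS3L2 and 4.21 (2.49 to 5.93) in shHNRNPU, log2 ratios of -1.72 and -0.99. The latter was just short of the threshold, with intervals apart. Its bounds differed in every library, at 2557, 2032 and 2168 bases. The other measured loci counted as H3, HIST1H3A, HIST1H3C, HIST1H3G and HIST2H3D, passed neither way in shDIS3L2, with log2 ratios of -0.38, -0.24, -0.53 and -0.76.

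Of 7 measured H4 loci, 1 was higher in shDIS3L2 and 0 were lower, with a median of -0.20. Over all measured loci 8.95% were higher and 7.58% lower, and 1 call does not set H4 apart. HIST1H4H stood at 0.749 FPKM (0.106 to 1.39) in control, with 5.02 (2.69 to 7.35) in shDIS3L2 and 1.73 (0.222 to 3.23) in shHNRNPU, a log2 ratio of 1.78. HIST1H4J, the most abundant H4 gene, stood at 53.8 FPKM (45.7 to 61.8), 41.2 (33.1 to 49.3) and 40.8 (32.7 to 48.9), with overlapping intervals throughout. HIST1H4K stood at 18.8, 22.4 and 15.9 FPKM. Of the annotated 50-base windows of HIST1H4J, 81.2% occur in HIST1H4K, and 100% of those of HIST1H4K occur in HIST1H4J. Fragments may therefore be shared between these 2 genes. The near-identical copies HIST2H4A and HIST2H4B summed to 6.65, 6.68 and 8.35 FPKM.

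Among clustered linker genes HIST1H1C was the 1 of 6 that reached the filter. It stood at 47.9 FPKM (44.0 to 51.9) in control, with 89.3 (83.2 to 95.4) in shDIS3L2 and 51.3 (46.8 to 55.8) in shHNRNPU. The shDIS3L2 level was 1.86-fold that of control, a log2 ratio of 0.88 with intervals apart, and passed neither way by size. Its direction in shDIS3L2 was opposite to that of the replacement linkers H1F0 and H1FX. The remaining clustered linkers HIST1H1E and HIST1H1B stood at 0.582 and 0.649 FPKM in control, and HIST1H1A and HIST1H1D were at 0 in all libraries.

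**Figure D3:**
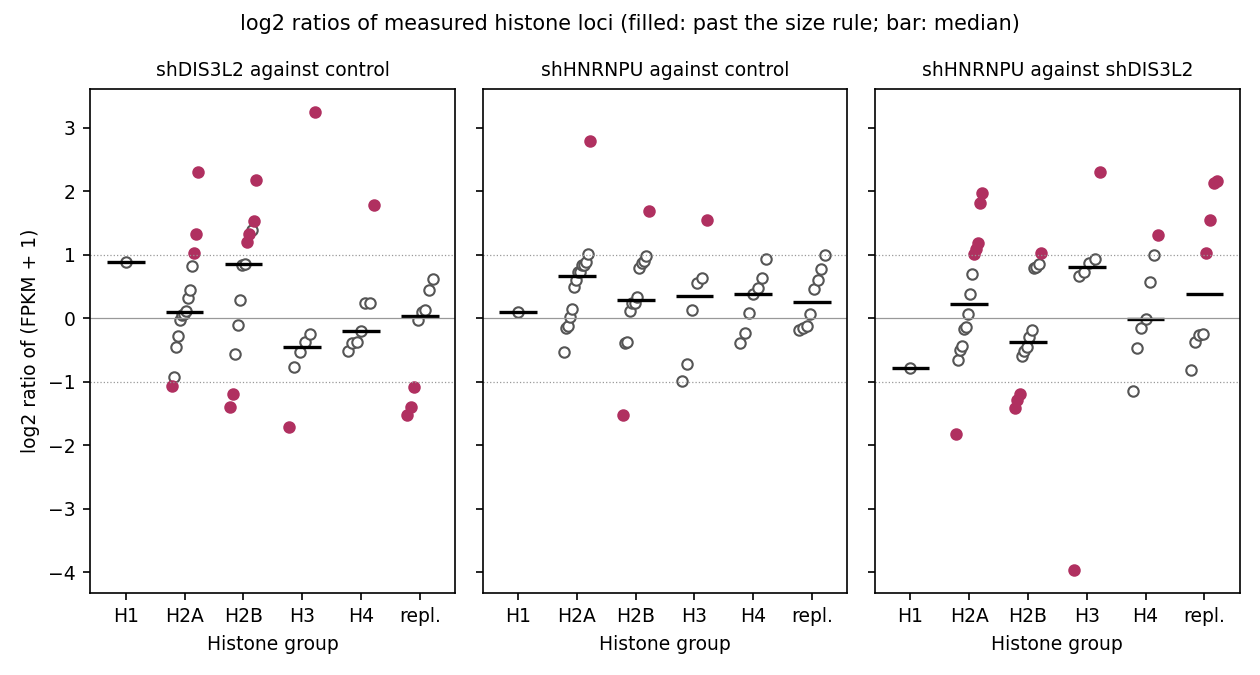
Log2 ratios of FPKM plus 1 for the 48 measured histone loci by type (H1, H2A, H2B, H3, H4 of the clusters, and replacement genes) in the 3 comparisons; filled points passed the size rule, bars are medians and dotted lines mark -1 and 1. Joint H2A and H3 loci are drawn under H2A. In shDIS3L2 against control filled points lie on both sides, and in shHNRNPU against control 3 lie above and 1 below.

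By position, the HIST1 cluster on chromosome 6 held 7 of the 9 higher loci in shDIS3L2 and 2 of the lower ones, of 29 measured. The HIST2 cluster on chromosome 1 had 2 higher and 2 lower of 9, and the HIST3 cluster 0 of 2. Along HIST1 the 7 higher loci all ended by position 27114661, and the 2 lower ones, HIST1H3H and HIST1H2AM/HIST1H3J, began at 27777137 and beyond. The non-histone genes in the interval chr6:25726291-27860963 (hg19) were looked at for comparison. Of 15 measured names there, 2 were higher in shDIS3L2 and 0 lower, where 8.95% and 7.58% of all loci were called. The higher ones were BTN2A2, with a log2 ratio of 1.04, and RP1-86C11.7, with 1.57. The median of the 15 names was 0.26, beside 0.12 for the measured HIST1 loci.

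**Figure D4:**
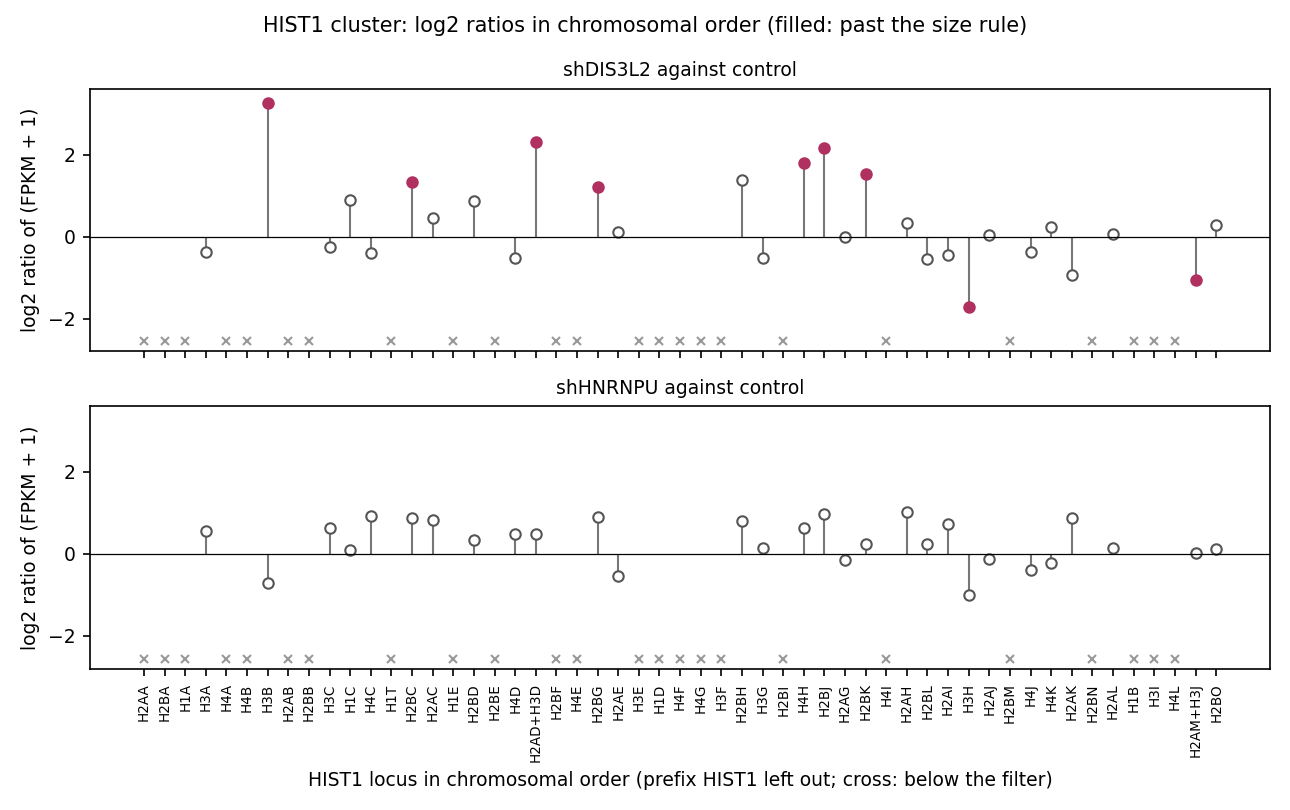
Log2 ratios of FPKM plus 1 for the HIST1 loci in chromosomal order, in shDIS3L2 (upper panel) and shHNRNPU (lower panel) against control; filled points passed the size rule and crosses mark loci below the filter. In shDIS3L2, 7 loci above zero passed, interspersed with loci that did not, and 2 below zero passed near the right end, and in shHNRNPU 0 passed.

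Many H2A and H2B genes share a promoter region and are transcribed away from each other. Pairs were looked for only among the 67 members with a matched RefSeq promoter. By their start sites, 9 pairs lay 194 to 979 bases apart on opposite strands, and both genes were measured in 5 of them. HIST1H2BC, HIST1H2BG and HIST1H2AH had no such match. The neighbours HIST1H2BK and HIST1H2AH, HIST1H2BC and HIST1H2AC, and HIST1H2BG and HIST1H2AE are therefore not counted. In each of these the H2B locus was called higher in shDIS3L2, so the pair counts below are incomplete. HIST1H2BJ and HIST1H2AG start 248 bases apart, yet HIST1H2BJ had a log2 ratio of 2.17 in shDIS3L2 while HIST1H2AG stood at 2.14, 2.10 and 1.82 FPKM in the 3 libraries, a ratio of -0.02. In shDIS3L2, 2 of the 5 pairs had 1 gene called, 0 had both and 3 had neither. HIST2H2BE and HIST2H2AC, 236 bases apart, were both called higher in shHNRNPU.

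In shHNRNPU against control, 3 of 48 histone loci were higher (6.25%) and 1 was lower (2.08%), while 8.32% and 7.47% of all measured loci were called in these directions. Under median-of-ratios rescaling the split over all loci turned from 981 higher and 880 lower to 731 and 1123. Intervals did not overlap for 15 of 48 histone loci, against 58.4% of all. The median log2 ratio was 0.43 over clustered loci, 0.26 over replacement loci and 0.12 over all loci, or 0.29, 0.09 and -0.03 after rescaling. Without merged loci, which leaves out H3F3B and H2AFX, the replacement median was -0.02. H3F3B was merged with MIR4738 in all 3 libraries, with like bounds, whereas H2AFX was merged in control alone. Ratios above 0 were seen for 30 of 40 clustered loci (75%) as deposited, against 57.7% of all loci. Among the 30, HIST2H2AC, HIST2H3D, HIST1H2AK and HIST1H3A reached the filter only through shHNRNPU, so their ratios are above 0 by selection. The clustered sum was 484 FPKM against 389, a ratio of 1.25. At a mean of at least 5 FPKM the clustered median was 0.17. That filter includes the compared libraries, so whether the larger value came with the low loci was not tested.

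Of the 3 higher loci, HIST2H2BE, an H2B gene of the HIST2 cluster, was the 1 above 0 in every library. It stood at 0.900 FPKM (0.630 to 1.17) in control, with 2.39 (1.90 to 2.88) in shDIS3L2 and 5.12 (4.42 to 5.82) in shHNRNPU, where it was 5.69-fold higher than in control with a log2 ratio of 1.69. All 3 intervals lay apart from one another. HIST2H2AC, its divergent partner, was listed at 0 in control and stood at 0.764 FPKM in shDIS3L2, which corresponded to 3 fragments, and at 5.93 (3.44 to 8.41) in shHNRNPU. HIST2H3D stood at 0.694 FPKM in control (3 fragments), was listed at 0 in shDIS3L2 and stood at 3.93 (1.75 to 6.11, 13 fragments) in shHNRNPU. HIST3H2BB, the lower locus, stood at 1.87 FPKM (0.662 to 3.07) in control and 1.66 in shDIS3L2 and was listed at 0 in shHNRNPU. A listed 0 can be a failed estimate, so no fold is given for these. With loci listed at 0 left out, 1 locus was higher and 0 were lower of 44, at backgrounds of 6.89% and 5.51%.

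Of the replacement genes 0 of 8 were called in shHNRNPU, where 4.67% of all loci with a mean of at least 100 FPKM were higher and 5.33% lower. H3F3B came nearest, with 1197 FPKM (1158 to 1237) against 600.1 (578 to 622), 1.995-fold higher, a log2 ratio of 0.995 just under the threshold with intervals far apart. H3F3A, which encodes the same protein, stood at 352 FPKM (337 to 368) against 336 (323 to 349), a ratio of 0.07 that was -0.11 under rescaling. The sum of the 2 genes was 936 FPKM in control, 1046 in shDIS3L2 and 1550 in shHNRNPU. H1FX, H1F0 and H2AFX lay above control with intervals apart, at log2 ratios of 0.77, 0.61 and 0.46, the H2AFX value being subject to the merge in control. These are the genes that were lower in shDIS3L2, and both comparisons share the control library. H2AFZ, at 497 FPKM (473 to 520.2), H2AFV, at 241 (209.6 to 273), and H2AFY, at 119.9 (113 to 126), had log2 ratios of -0.19, -0.16 and -0.12.

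The knockdowns were also compared with each other, which uses no control library. In shHNRNPU against shDIS3L2, 12 of 48 histone loci were higher (25%) and 5 lower (10.4%), beside 10.2% and 10.5% of all measured loci. Intervals did not overlap for 27 of 48, against 60.2% of all loci. Replacement genes gave 4 of the 12 higher loci, and 0 were lower, where 7.81% and 8.69% of loci with a mean of at least 100 FPKM were called. H1FX and H1F0 were 4.53-fold and 4.42-fold higher in shHNRNPU than in shDIS3L2, log2 ratios of 2.17 and 2.13, H2AFX had 1.54 (1.45 with DPAGT1 summed), and H3F3B had 1.03 (0.97 and no call under rescaling). The median was 0.39 over replacement loci, 0.03 over clustered loci and 0.03 over all loci. The replacement median turned to -0.25 without loci merged in any library, a filter that left out H3F3B and H2AFX. The clustered median turned to -0.45 at a mean of at least 5 FPKM, which HIST1H3B and HIST1H2AD/HIST1H3D reached only through shDIS3L2. For replacement loci with like bounds in all 3 libraries, control included, the median was also -0.25. That filter left out H1FX, H2AFX and H2AFV for their bounds in control, while their bounds in the knockdowns were alike.

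Clustered loci gave 8 higher and 5 lower calls of 40 in that comparison, where 10.2% and 10.5% of all measured loci were called. The lower ones were HIST1H3B (log2 ratio -3.97, with the unlike bounds given above), HIST1H2AD/HIST1H3D (-1.82), HIST3H2BB (-1.41, listed at 0 in shHNRNPU), HIST1H2BK (-1.29) and HIST1H2BJ (-1.19). HIST1H2BK and HIST1H2BJ, the H2B genes whose promoters are shown above, were thus below shDIS3L2 in both other libraries. Of the higher ones, HIST3H2A, which encodes an H2A, stood at 41.3 FPKM (36.2 to 46.4) in control, with 34.0 (28.8 to 39.3) in shDIS3L2 and 69.5 (61.8 to 77.2) in shHNRNPU, a log2 ratio of 1.01 between the knockdowns. HIST1H4C had 1.32, HIST1H2AI 1.18, HIST1H2AM/HIST1H3J 1.09 and HIST2H2BD 1.02, while HIST2H3D, HIST2H2AC and HIST1H2AK rested on values of 0 or near 0 in shDIS3L2. Bounds of HIST3H2A, HIST1H4C and HIST1H2AM/HIST1H3J differed between the knockdowns, and those of HIST1H2AI differed only in control. HIST3H2A and HIST2H2BD were no longer called under rescaling.

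Bounds that differ between libraries touched 14 of the 48 measured loci. With these left out, an alternative added after the data were seen, 5 higher and 2 lower loci remained in shDIS3L2: HIST2H2AA3, HIST2H2AA4, HIST1H2AD/HIST1H3D, HIST1H2BC and HIST1H4H were higher, and H1F0 and HIST2H2BD lower. These were 14.7% and 5.88% of the 34 loci left, at backgrounds of 8.74% and 6.74%. The filter asks for like bounds in all 3 libraries. HIST1H2AM/HIST1H3J, also called lower in shDIS3L2, was left out for its bounds in shHNRNPU, while those in control and shDIS3L2 were alike. All 4 calls in shHNRNPU had like bounds.

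What the called clustered loci share was looked for in sequence and gene structure. In shDIS3L2, 22.5% of the measured clustered loci were higher and 10% lower, beside 8.95% and 7.58% of all measured loci. Of 22 measured clustered loci with a stem-loop in an annotated transcript, 5 were higher and 3 lower in shDIS3L2 (median log2 ratio 0.05). Of 18 without a match, 4 were higher and 1 lower (0.16). Loci with an annotated intron had 3 higher and 1 lower of 8 (median 0.65), and those without had 6 higher and 3 lower of 32 (0.01). Where a RefSeq promoter was matched, loci with the octamer had 3 higher and 1 lower of 13 (0.45), and those without had 4 higher and 1 lower of 21 (-0.24). Loci with at least 20% of their 50-base windows in other genes had 4 higher and 1 lower of 13 (0.24). The others had 5 higher and 3 lower of 27 (0.07). These splits overlap one another and hold few loci.

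Most factors that process histone mRNA ends passed neither way. SLBP stood at 43.1 FPKM (40.6 to 45.7) in control, with 38.9 (36.4 to 41.5) in shDIS3L2 and 48.1 (45.0 to 51.1) in shHNRNPU. Of 28 measured members of the processing list, 1 was higher and 1 lower in each knockdown, with median log2 ratios of 0.10 and 0.04. Of all measured loci, 8.95% were higher and 7.58% lower in shDIS3L2, and 8.32% and 7.47% in shHNRNPU. SNRPD3, a core protein of spliceosomal and U7 small nuclear ribonucleoproteins, had a log2 ratio of 1.37 in shDIS3L2 at a merged locus, and SNRPF, another such protein, had 2.04 in shHNRNPU. MIF4GD, which links SLBP to translation, stood at 41.6 FPKM in control and was listed at 0 in both knockdowns.

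In shHNRNPU the decay and uridylation list had 1 higher and 0 lower of 25, with a median of 0.07, where 8.32% and 7.47% of all loci were called. In shDIS3L2 it had 2 higher and 1 lower, with a median of 0.42, where 8.95% and 7.58% were called. The lower gene was DIS3L2 itself, with a log2 ratio of -1.03 at a merged locus of unlike bounds. PAPD4, a poly(A) polymerase, and ATR, a checkpoint kinase, were higher, with log2 ratios of 1.06 and 1.56, both with unlike bounds. ERI1, the exonuclease that trims the histone mRNA end, stood at 0.959, 1.24 and 0.805 FPKM with overlapping intervals. The uridylyltransferase genes ZCCHC11 and ZCCHC6 stood at 6.22, 8.84 and 5.26 FPKM and at 1.13, 2.36 and 1.25 FPKM, and neither passed the rule. DIS3, the exosome nuclease, had a log2 ratio of 1.22 in shHNRNPU.

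Of 14 genes of histone gene transcription, cyclins and CDK2 among them, 1 was higher in shDIS3L2 and 2 in shHNRNPU, with 0 lower. Over all measured loci 8.95% were higher in shDIS3L2 and 8.32% in shHNRNPU, and 7.58% and 7.47% lower. NPAT, the cyclin E-CDK2 substrate that activates histone promoters, stood at 0.572 FPKM (0.290 to 0.853) in control, with 1.73 (1.21 to 2.24) in shDIS3L2 and 1.61 (1.16 to 2.06) in shHNRNPU, log2 ratios of 0.80 and 0.73 that passed neither way. CASP8AP2, a partner of NPAT, stood at 1.11, 1.03 and 1.03 FPKM. CCNE2, a cyclin E gene, was listed at 0 in control and stood at 3.27 and 5.39 FPKM in the knockdowns, and YY1 had a log2 ratio of 1.67 in shHNRNPU at a merged locus.

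Genes of DNA replication are, like the clustered histone genes, expressed mainly around S phase. Of 43 measured, 0 were higher and 4 lower in shDIS3L2, where 8.95% and 7.58% of all loci were called. Their median log2 ratio was -0.40, beside 0.09 over clustered histone loci and 0.09 over all loci. The lower ones were the replication helicase genes MCM2 (-1.05) and GINS2 (-1.22), the DNA ligase gene LIG1 (-1.18), and GINS4, which was listed at 0 there. In shHNRNPU the list had a median of -0.11, and RRM2, a subunit gene of ribonucleotide reductase, was higher (2.21, at a merged locus). Mitosis genes were higher in 1 of 17 in shDIS3L2 and 3 of 17 in shHNRNPU, with 0 lower. Of all loci, 8.95% were higher in shDIS3L2 and 8.32% in shHNRNPU. The part of the cell cycle in the histone levels was not tested.

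Histone chaperones, which carry histones to chromatin, had 1 higher and 3 lower of 29 in shDIS3L2, where 8.95% and 7.58% of all loci were called. ASF1B, a chaperone of H3 and H4 linked to proliferation, stood at 63.0, 28.6 and 82.4 FPKM (log2 ratio -1.11 in shDIS3L2). TONSL, a reader of newly made H4, had -1.04 there, as MCM2 had -1.05, and NAP1L1, a chaperone of H2A and H2B, had 1.05. In shHNRNPU ASF1A was lower (-1.12). Of 11 further variant genes, 3 were measured. H2AFJ stood at 138 FPKM in control, 63.4 in shDIS3L2 (-1.11) and 88.7 in shHNRNPU (-0.63), CENPA, the centromeric H3, at 57.3, 49.5 and 64.3 FPKM, and H2AFY2, a second macroH2A gene, at 7.09 FPKM in control and 0 in both knockdowns.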

How the data were processed

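RNA-seq of 3 libraries was used, 1 per group, grouped by the labels. Per the submitters' processing notes, the tools were TopHat2 2.0.12 and Cufflinks 2.2.1 and the build hg19. Per the file headers, the deposited tables give FPKM per gene, its interval and a status. Identifiers in the deposited tables show a separate assembly for every library, so locus bounds and merged names differ between libraries. Normalization options, strand, the annotation release and the level of the bounds (taken as 95%) were not given in the sources used here.

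From these, log2 ratios of FPKM plus 1 were computed with Python 3.11.15, pandas 2.3.3 and numpy 2.4.6. Where a name had several loci, that with the highest mean FPKM was used. Fragments behind low values were worked out from FPKM and its upper bound. Of clustered and replacement loci with up to 20 fragments, 60.6%, 78.1% and 74.1% came out whole within 0.02 in control, shDIS3L2 and shHNRNPU, too few for a count test. Depth came from the FPKM worth of 1 fragment in 93, 109 and 102 single-exon genes of at least 2000 bases. The calling was tested on simulated data.

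Members, gene lists and settings were chosen with earlier results of these data known. All measured members may be named. Full values are given for replacement genes, called members and the highest of each type per cluster. Of other lists, named regulators and up to 5 called genes are given, and of genes in the HIST1 interval up to 4. A result for 1 listed gene is not reported here.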

Additional observations from a re-analysis of the deposited data

How the results depend on the processing

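No paired analysis was possible because each group has 1 library. Counts are of histone loci past the size rule, with the share of all loci at that setting in parentheses, and medians are log2 ratios. Of these, the values named here moved, by over 1.5 times for a count or over 0.1 for a median. No called locus changed direction, and medians that changed sign are given with it. Pseudocount 0.1: 2 lower of 48 in shHNRNPU (8.66%), clustered median there 0.54. Pseudocount 5: 5 higher and 4 lower of 48 in shDIS3L2 (4.7% and 4.33%), and 1 and 0 in shHNRNPU (4.01% and 4.6%). The clustered median in shHNRNPU was then 0.22. In shHNRNPU against shDIS3L2 4 were higher and 3 lower (5.31% and 6.15%). Median-of-ratios rescaling: replacement medians -0.0859 in shDIS3L2 and 0.0855 in shHNRNPU, and in the latter 2 lower (9.53%) and a clustered median of 0.29. No filter: in shHNRNPU 2 lower of 82 (1.85%) and a clustered median of 0.13. Mean of at least 5: clustered medians 0.65 in shDIS3L2, 0.17 in shHNRNPU and -0.45 between the knockdowns. Of the 24 loci left, 0 were higher and 0 lower in shHNRNPU (7.74% and 7.79%) and 7 higher between the knockdowns (10.2%). Loci listed at 0 left out: 1 higher and 0 lower of 44 in shHNRNPU (6.89% and 5.51%), clustered median between the knockdowns -0.0738. Merged loci left out, H3F3B and H2AFX among them: 4 lower of 42 in shDIS3L2 (6.7%), replacement medians -0.024 in shHNRNPU and -0.25 between the knockdowns. Threshold 0.58: 10 higher and 2 lower of 48 in shHNRNPU (20.1% and 13.9%). Loci with bounds unlike in any library left out (added after the data were seen): 5 higher and 2 lower of 34 in shDIS3L2 (8.74% and 6.74%). Between the knockdowns 6 were higher and 2 lower (8.75% and 10.5%). The replacement medians were then 0.13 in shDIS3L2, 0.0679 in shHNRNPU and -0.25 between the knockdowns. Where fewer loci enter, that is how the alternative is built. Otherwise the cause was not tested. For single loci, the call, or the lack of one, was unchanged in 1528 cases, 26 lost and 24 gained a call. Ratios without a call could still change sign, as that of H3F3A in shHNRNPU did under rescaling. Most clustered loci are low, and their intervals limit what a difference can show.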
